A study of Mus musculus with 6 samples.

Results

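The transcripts described here are those of 8 red blood cell genes in mouse muscle. They comprise the adult hemoglobin genes *Hba-a1*, *Hba-a2*, *Hbb-bs* and *Hbb-bt*, the heme synthesis gene *Alas2*, *Ahsp*, which encodes a chaperone of free alpha-globin, and the membrane genes *Slc4a1* and *Epb42*. They were taken by gene name from a count table of 53084 genes, in which 7 of the 8 have a row. Of these 7, 6 had enough counts to be among the 15075 genes tested. *Epb42* is given by its counts, and *Ahsp* was not analysed here. Together the 4 adult globin genes took between 0.410% and 0.460% of all counts in the *Tarsl2*-/- libraries, and between 0.482% and 1.00% in the *Tarsl2*+/+ libraries. All 6 tested genes had a negative log2 fold change (*Tarsl2*-/- over *Tarsl2*+/+), from -1.53 for *Slc4a1* to -0.65 for *Hba-a2*. At an adjusted p under 0.05, 0 of the 6 passed edgeR's quasi-likelihood test.

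RNA came from the muscle of 3 *Tarsl2*+/+ mice, numbered 583, 584 and 595, and 3 *Tarsl2*-/- mice, numbered 588, 589 and 591, with 1 library per mouse. All were male C57BL/6 mice, 6 weeks old, raised in a specific pathogen-free room on standard chow with no other treatment. *Tarsl2* encodes a threonyl-tRNA synthetase-like protein. The *Tarsl2*-/- mice carried a Cas9-made deletion around exon 3 of the gene, introduced in C57BL/6J zygotes and therefore present in every tissue, blood-forming tissue included. The muscle taken and any perfusion of the blood vessels are not given in the sources used here. In bulk RNA of this kind, fewer cells of a type and less RNA per cell cannot be told apart.

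The libraries held between 16176591 and 20123767 counts, so that 3 counts corresponded to between 0.146 and 0.187 CPM (counts relative to library size, which was scaled by TMM, a trimmed mean of log ratios between libraries). The targeted gene, *Tarsl2*, had between 456 and 605 counts in the *Tarsl2*+/+ libraries and between 30 and 40 in the *Tarsl2*-/- libraries, matching their labels. In every library 10 skeletal muscle genes together held at least 1901788 counts. An extraction protocol in the sample records speaks of retinas, but 10 retinal genes together held at most 13 counts, *Sag* at most 7 and *Opn1sw* at most 4. Of all tested genes, 342 differed between the genotypes, 207 of them lower in *Tarsl2*-/- muscle, and the median log2 fold change was 0.00253. *Tarsl2*+/+ mouse 595 stood apart with the most counts of every tested red cell gene, and *Tarsl2*+/+ mouse 583 had the highest summed counts of neutrophil and lymphocyte genes. The fold change of each tested red cell gene is therefore given with and without mouse 595.

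Hemoglobin is a tetramer of alpha and beta chains, each holding a heme. The chains are made in nucleated erythroid precursors of the bone marrow under factors such as GATA1 and KLF1. The precursors lose their nucleus and enter the blood as reticulocytes, which make no new RNA but keep a store of globin, *Alas2* and membrane protein messages, and then lose these as the red cell matures. Red cells reach muscle only within its vessels, whereas the muscle fiber's own oxygen carrier is myoglobin.

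The adult globin genes come in near-identical pairs, which limits what a count on a single copy can show. *Hba-a1* (ENSMUSG00000069919, chr11:32283511-32284465, plus strand) and *Hba-a2* (ENSMUSG00000069917, chr11:32296489-32297298, plus strand) both encode the alpha chain in 3 exons. *Hbb-bs* (ENSMUSG00000052305, chr7:103826534-103828096, minus strand) and *Hbb-bt* (ENSMUSG00000073940, chr7:103812524-103813996, minus strand) both encode the beta chain, also in 3 exons, and form the single-type beta-globin haplotype of C57BL/6 mice. Positions are on GRCm38. The coding sequences of each pair differ at 1 base and at 0 amino acids, over 426 bases in the alpha pair and 441 in the beta pair. The following 41 bases of each coding sequence are shown because they hold that base, in capitals. It is C381T from *Hba-a1* to *Hba-a2* and C417T from *Hbb-bs* to *Hbb-bt*, counted from 1 at the A of the start codon.

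Hba-a1: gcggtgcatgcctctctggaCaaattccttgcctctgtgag
Hba-a2: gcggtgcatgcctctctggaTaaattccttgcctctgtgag
Hbb-bs: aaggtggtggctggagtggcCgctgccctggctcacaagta
Hbb-bt: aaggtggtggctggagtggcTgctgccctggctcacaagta

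Of the 150-base windows of the *Hba-a1* transcript, 48.4% occur unchanged in *Hba-a2*, and 65.7% of those of *Hba-a2* occur in *Hba-a1*. For *Hbb-bs* and *Hbb-bt* the shares are 58.7% and 50.7%. How the authors' counting placed reads that match both copies is not given in the sources used here, so the split within a pair is uncertain and the summed values are the firmer ones.

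The alpha-globin gene *Hba-a1* had 27326, 22284 and 47629 counts in *Tarsl2*+/+ mice 583, 584 and 595, and 16294, 14453 and 23070 in *Tarsl2*-/- mice 588, 589 and 591. This was 1761 ± 673 CPM (SD, n = 3) against 977 ± 125 CPM (SD, n = 3), and the genotypes did not overlap after scaling (1184 CPM in mouse 584 and 1121 CPM in mouse 591 lay closest). The log2 fold change was -0.85 (standard error 0.22, edgeR adjusted p = 0.0676), and -0.51 without mouse 595. Its copy *Hba-a2* had far fewer counts and the widest spread among *Tarsl2*-/- mice of the 4 globin genes, relative to the mean. It had 2035, 3412 and 4996 counts in the *Tarsl2*+/+ and 3497, 939 and 2171 in the *Tarsl2*-/- mice, in the same order, so that the genotypes overlapped. Its log2 fold change was -0.65 (standard error 0.36, edgeR adjusted p = 0.354), and ranged from -1.19 without *Tarsl2*-/- mouse 588 to -0.32 without *Tarsl2*-/- mouse 589, with -0.33 without mouse 595.

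The beta-globin gene *Hbb-bs* was the most abundant red cell transcript. It had 77735, 48882 and 115584 counts in *Tarsl2*+/+ and 49361, 40386 and 56270 in *Tarsl2*-/- muscle. This was 4403 ± 1740 CPM (SD, n = 3) against 2668 ± 130 CPM (SD, n = 3). The genotypes overlapped, because *Tarsl2*+/+ mouse 584, at 2597 CPM, lay below *Tarsl2*-/- mice 588 and 591. The log2 fold change was -0.72 (standard error 0.23, edgeR adjusted p = 0.119), and -0.42 without mouse 595. *Hbb-bt*, the other beta chain gene, came closest to the threshold of the tested red cell genes. It had 15630, 14193 and 27671 counts in *Tarsl2*+/+ and 9288, 10506 and 11115 in *Tarsl2*-/- muscle, or 1040 ± 366 against 571 ± 73.8 CPM (SD, n = 3 each). These did not overlap, and the log2 fold change was -0.87 (standard error 0.20, edgeR adjusted p = 0.052), or -0.55 without mouse 595.

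*Alas2* (ENSMUSG00000025270, chrX:150547375-150570638, plus strand, 11 exons) encodes the erythroid form of the first enzyme of heme synthesis. It had 648, 575 and 1980 counts in *Tarsl2*+/+ mice 583, 584 and 595, and 454, 498 and 677 counts in *Tarsl2*-/- mice 588, 589 and 591. Mouse 595, at 103.9 CPM, was far above the other 5, which lay between 25.3 and 37.9 CPM and overlapped between the genotypes. The log2 fold change was -0.95 (standard error 0.36, edgeR adjusted p = 0.172), but -0.20 without mouse 595 (edgeR adjusted p = 0.551).

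*Slc4a1* (ENSMUSG00000006574, chr11:102348824-102366203, minus strand, 20 exons) encodes band 3, the anion exchanger of the red cell membrane. Its counts were 50, 31 and 99 in *Tarsl2*+/+ and 13, 15 and 34 in *Tarsl2*-/- muscle, or 3.26 ± 1.80 against 1.10 ± 0.486 CPM (SD, n = 3 each). The genotypes met at 1.65 CPM, the value of both *Tarsl2*+/+ mouse 584 and *Tarsl2*-/- mouse 591 to 3 digits. The log2 fold change was -1.53 (standard error 0.43, edgeR adjusted p = 0.0846), and -1.02 without mouse 595. *Epb42* (ENSMUSG00000023216, chr2:121017891-121037072, minus strand, 13 exons) encodes protein 4.2, which ties band 3 to the membrane skeleton. It had 2, 5 and 5 counts in *Tarsl2*+/+ and 0, 0 and 2 in *Tarsl2*-/- muscle. Counts this close to the 3-count floor allow no fold change, and the gene was not tested.

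**Figure D1:**
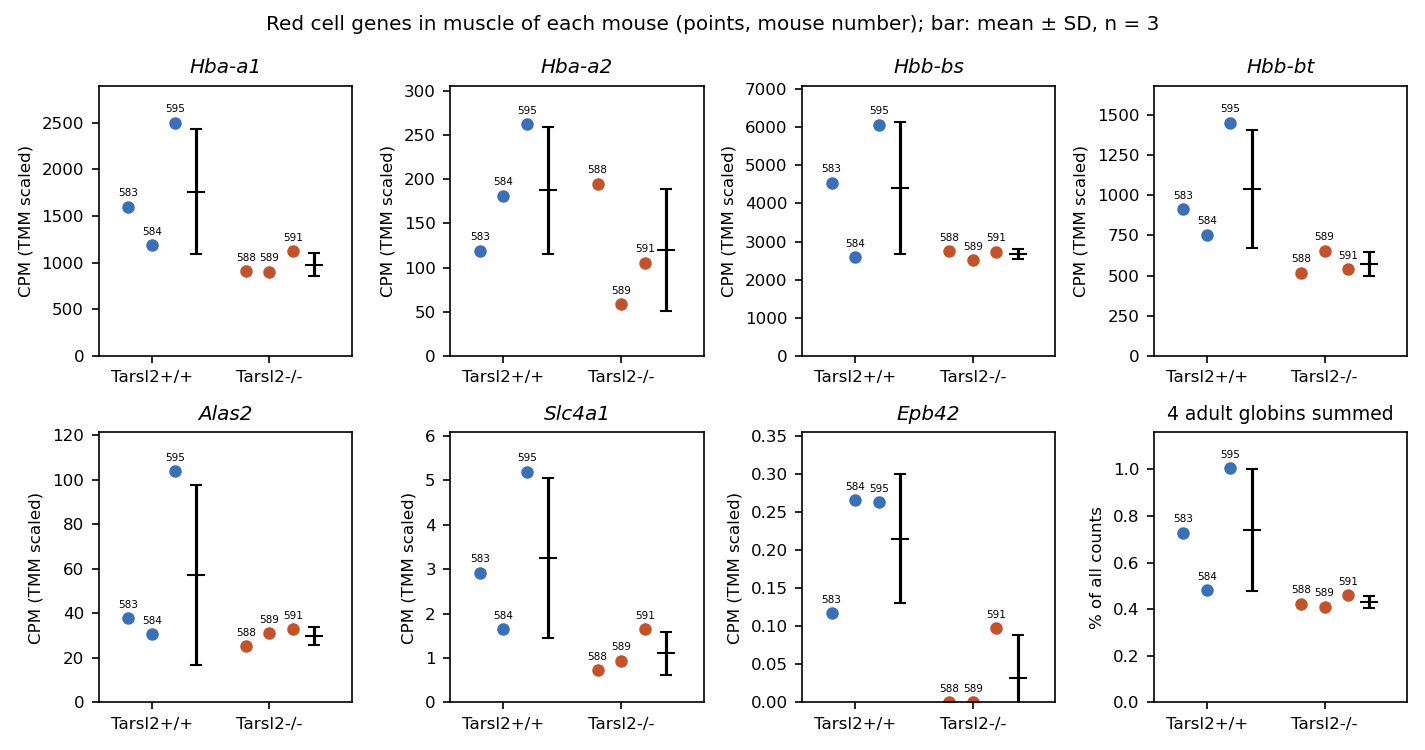
Level of each red cell gene in each mouse, in CPM scaled by TMM, and the share of all counts taken by the 4 adult globin genes. Points are mice with their numbers, and bars are the mean ± SD (n = 3 per genotype), cut off at 0 for Epb42. Mouse 595 is the highest point of all panels but Epb42, and the Tarsl2-/- points of the summed globins lie between 0.410% and 0.460%, below all 3 Tarsl2+/+ points.

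Read against all tested genes, the count of tests passed was 0 of 6 for edgeR at an adjusted p under 0.05, where 1.37% of all tested genes were called lower in *Tarsl2*-/- muscle. At an unadjusted p under 0.05, 5 of the 6 were lower (all but *Hba-a2*), beside 10.2% of all tested genes. The genotypes did not overlap for 2 of the 6, *Hba-a1* and *Hbb-bt*, beside 12% of all tested genes that were lower in *Tarsl2*-/- muscle without overlap. The log2 fold change was below 0 for 6 of 6, beside 49.6% of all tested genes. The 6 are not independent of each other, since they come from the same mice and the globin copies may share reads. DESeq2, the tool named in the study's methods, called 1 member, *Slc4a1* (DESeq2 adjusted p = 0.0218), where 2.45% of the genes it gave an adjusted p were called lower in *Tarsl2*-/- muscle. limma-voom called 0. The median log2 fold change of the 6 was -0.86, and -0.47 without mouse 595.

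With the near-identical copies added together, the split of shared reads within a pair no longer matters. Whether such reads were counted at all is not given, and the sums would lack any that were left out. The alpha pair had a log2 fold change of -0.83 (standard error 0.21, edgeR adjusted p = 0.0672) and the beta pair of -0.75 (standard error 0.22, edgeR adjusted p = 0.0972). All 4 genes together held 122726, 88771 and 195880 counts in *Tarsl2*+/+ and 78440, 66284 and 92626 in *Tarsl2*-/- muscle. As shares of all counts these were 0.729%, 0.482% and 1.00% against 0.423%, 0.410% and 0.460%. The narrowest gap was between mouse 584 (95% Wilson interval 0.479% to 0.485%) and mouse 591 (0.457% to 0.463%), intervals that cover counting error only. The means were 0.738 ± 0.261% and 0.431 ± 0.0262% (SD, n = 3 each), and the SD among *Tarsl2*+/+ mice was nearly as large as the difference. On the log2 scale the summed CPM differed by -0.70 (two-sided exact permutation over mice, p = 0.1 and 0.7 after Benjamini-Hochberg adjustment over 7 such tests). With 3 mice per genotype no lower p than 0.1 can be reached. Without mouse 595 the difference was -0.42, and without mouse 584, the lowest of its genotype, it was -0.99.

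The proportions among the globin messages overlapped between the genotypes. *Hbb-bs* made up between 55.1% and 63.3% of the 4 globin genes' counts in *Tarsl2*+/+ and between 60.7% and 62.9% in *Tarsl2*-/- muscle. Alpha-globin counts per 100 beta-globin counts were 31.4, 40.7 and 36.7 in *Tarsl2*+/+ and 33.7, 30.2 and 37.5 in *Tarsl2*-/- muscle, which overlap (exact permutation test, p = 0.5, adjusted 0.7). *Hbb-bt* took 16.7%, 22.5% and 19.3% of the beta-globin counts in *Tarsl2*+/+, against 15.8%, 20.6% and 16.5% in *Tarsl2*-/- muscle (exact permutation test on the log2 ratio to *Hbb-bs*, p = 0.5, adjusted 0.7). The share of *Hba-a2* in the alpha-globin counts was the least steady, from 6.10% in mouse 589 to 17.7% in mouse 588, both *Tarsl2*-/-. It overlapped between the genotypes (exact permutation test on the log2 ratio to *Hba-a1*, p = 1.0).

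The other red cell messages were then set against the globins of the same library, a ratio that does not depend on scaling. *Alas2* had 5.28, 6.48 and 10.1 counts per 1000 globin counts in *Tarsl2*+/+ and 5.79, 7.51 and 7.31 in *Tarsl2*-/- muscle. The log2 ratio differed by -0.04 between the genotypes (exact permutation test, p = 1.0), and by 0.22, with the opposite sign, when mouse 595 was left out. *Slc4a1* had 0.407, 0.349 and 0.505 counts per 1000 globin counts in *Tarsl2*+/+ and 0.166, 0.226 and 0.367 in *Tarsl2*-/- muscle. Here the 3 *Tarsl2*-/- values reached into the *Tarsl2*+/+ range only with mouse 591, and the log2 ratio differed by -0.79 (exact permutation test, p = 0.2, adjusted 0.7). Leaving out each library in turn gave differences between -1.10 and -0.53. These *Slc4a1* values rest on 13 to 99 counts per library.

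**Figure D2:**
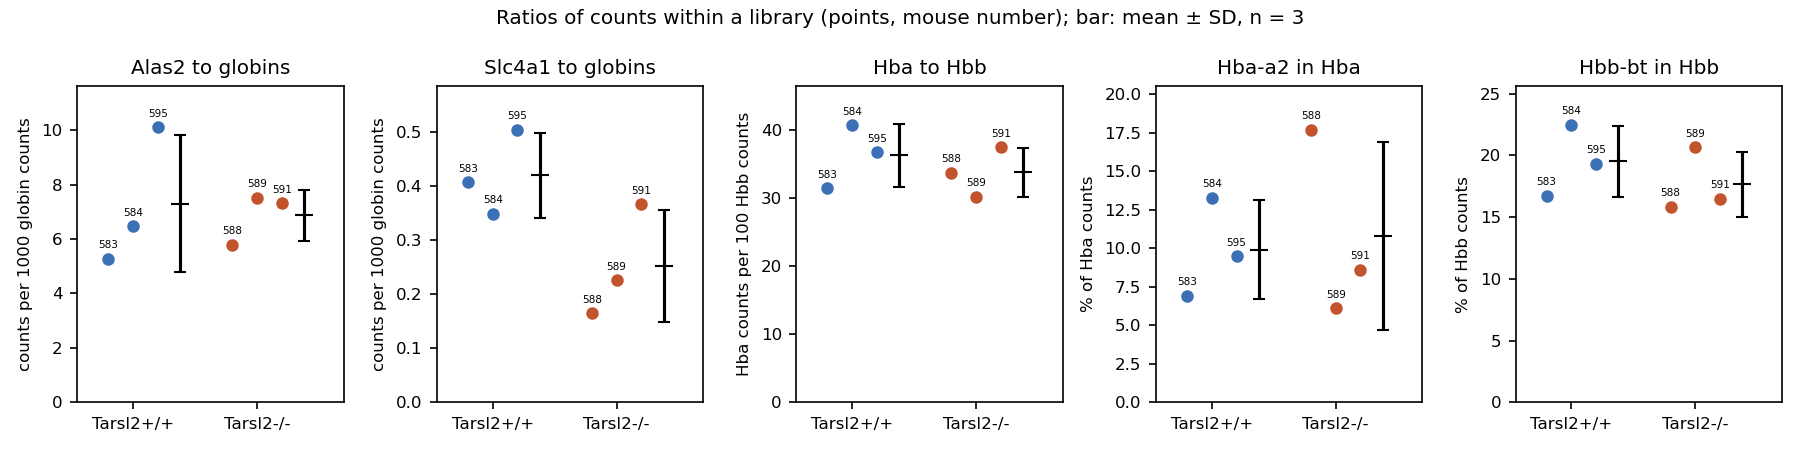
Ratios of counts within each library: Alas2 and Slc4a1 per 1000 adult globin counts, alpha-globin (Hba) per 100 beta-globin (Hbb) counts, and the share of Hba-a2 and Hbb-bt in their pair in percent. Points are mice with their numbers and bars are the mean ± SD (n = 3 per genotype). The genotypes overlap in all 5 panels, and Slc4a1 shows the lowest Tarsl2-/- values, 0.166 and 0.226.

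Levels of different genes can be compared only per length of the gene model. In *Tarsl2*+/+ muscle *Hbb-bs* had a mean of 5733 CPM per kb, *Hba-a1* 2168, *Hbb-bt* 1480 and *Hba-a2* 281. *Alas2* followed with 23.9, *Slc4a1* with 0.666 and *Epb42* with 0.0397 CPM per kb. The order was the same in *Tarsl2*-/- muscle, with 3475, 1203, 812 and 179 CPM per kb for the globins, 12.4 for *Alas2*, 0.226 for *Slc4a1* and 0.00598 for *Epb42*. Each library on its own gave this order as well, so that no neighbors in it overlapped within a library. Among the globin genes, however, the order can depend on how shared reads were counted.

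The members' promoters carry letters known from erythroid genes. They are shown for *Hba-a1*, *Hbb-bs*, *Hbb-bt* and *Alas2*, as the 250 bases before the RefSeq transcript start on GRCm38.p6, to let the globin copies be compared with each other and with *Alas2*. Capitals mark, on either strand, the GATA motif (the letters AGATAA, the letters TGATAA, the letters AGATAG or the letters TGATAG), the CACCC box, the CCAAT box and the TATA box (ATATAA). The windows are chr11:32283422-32283671 on the plus strand for *Hba-a1*, chr7:103827929-103828178 on the minus strand for *Hbb-bs*, chr7:103813924-103814173 on the minus strand for *Hbb-bt* and chrX:150547167-150547416 on the plus strand for *Alas2*.

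Hba-a1: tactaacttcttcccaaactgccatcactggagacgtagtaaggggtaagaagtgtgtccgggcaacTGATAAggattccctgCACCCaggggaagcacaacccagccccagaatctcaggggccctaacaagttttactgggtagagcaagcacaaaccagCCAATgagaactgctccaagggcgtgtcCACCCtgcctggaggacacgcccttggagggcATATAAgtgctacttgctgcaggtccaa
Hbb-bs: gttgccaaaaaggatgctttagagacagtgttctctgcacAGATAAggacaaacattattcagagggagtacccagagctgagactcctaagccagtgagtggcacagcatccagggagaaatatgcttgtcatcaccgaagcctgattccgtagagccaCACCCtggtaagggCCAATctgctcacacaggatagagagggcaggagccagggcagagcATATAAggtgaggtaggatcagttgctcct
Hbb-bt: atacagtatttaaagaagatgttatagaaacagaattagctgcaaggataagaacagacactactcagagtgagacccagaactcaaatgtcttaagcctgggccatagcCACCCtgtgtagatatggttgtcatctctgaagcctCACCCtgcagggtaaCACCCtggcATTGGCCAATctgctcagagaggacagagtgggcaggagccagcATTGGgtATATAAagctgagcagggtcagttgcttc
Alas2: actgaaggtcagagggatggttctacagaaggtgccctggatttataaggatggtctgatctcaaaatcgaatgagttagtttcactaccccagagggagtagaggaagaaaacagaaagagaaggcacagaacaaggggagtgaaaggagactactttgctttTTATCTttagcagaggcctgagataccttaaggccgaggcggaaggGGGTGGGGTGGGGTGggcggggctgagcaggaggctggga

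The 4 globin promoters each hold the TATA box, at 28 to 31 bases before the start, and at least 1 CACCC and 1 CCAAT box. *Hba-a1*, *Hba-a2* and *Hbb-bs* also hold a GATA motif, at 183, 186 and 210 bases before the start, and *Hbb-bt* holds none in this window. In *Hbb-bt* a CCAAT box on the other strand directly adjoins the CCAAT box on the gene's own strand. The *Hba-a2* promoter is identical to that of *Hba-a1* over 297 aligned bases, with a shift of 3. *Alas2* holds 1 GATA motif and 3 adjoining CACCC boxes, all on the other strand, and neither CCAAT nor ATATAA. *Epb42* holds 1 GATA motif alone. Of 32851 promoters of the same 300 bases (250 before and 50 after the start), 29.8% hold the GATA motif, 57.5% CACCC, 37.4% CCAAT and 9.82% ATATAA, and 0.773% hold all 4, as *Hba-a1*, *Hba-a2* and *Hbb-bs* do. *Slc4a1* has no entry. A match is a string of letters and was not tested for binding.

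Other globin chains were at or near the detection limit. The embryonic genes *Hbb-bh1*, *Hbb-bh2* and *Hba-x* had 0 counts in all 6 libraries, which allows up to 3 counts, or 0.146 to 0.187 CPM, in each, and *Hbb-y* had 1 count in mouse 588 and 0 elsewhere. The theta-globin gene *Hbq1a* had 14, 9 and 29 counts in *Tarsl2*+/+ and 12, 3 and 8 in *Tarsl2*-/- muscle (log2 fold change -1.15, edgeR adjusted p = 0.255), again with the highest count in mouse 595, and the log2 fold change without it was -0.61. *Hbq1b* had 4 to 6 against 2 counts. The globin-fold genes of the tissue itself had values nearer 0. *Mb*, which encodes myoglobin, had a log2 fold change of -0.11 (edgeR adjusted p = 0.709), and *Cygb*, which encodes cytoglobin, of -0.08 (edgeR adjusted p = 0.692).

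Genes of nucleated erythroid precursors, which still transcribe, were looked at next. Several are also used by other cells, so the list alone cannot separate precursors from cells that only carry RNA. Of the 15 precursor genes 5 were tested, with 2 negative and 3 positive log2 fold changes, a median of 0.05 and 0 past the threshold. The median was -0.02 without *Tarsl2*-/- mouse 588 and 0.11 without mouse 595, so that its sign rested on single libraries. At an unadjusted p under 0.05, 1 was lower, *Trim10*, and DESeq2 called 0. *Gata1*, the master erythroid transcription factor, had 0, 0 and 6 counts in *Tarsl2*+/+ and 8, 5 and 1 in *Tarsl2*-/- muscle. *Klf1*, the activator of adult beta-globin, had 1, 6 and 0 against 8, 3 and 7. Both factors together had 1, 6 and 6 counts in the *Tarsl2*+/+ libraries and 16, 8 and 8 in the *Tarsl2*-/- libraries, where *Alas2*, a target of GATA1, had 575 to 1980 and 454 to 677. Mouse 595, with the most globin counts, held 6 counts of *Gata1* and *Klf1*, and mouse 588 held 16. Other genes of the list had their highest count in mouse 595, among them *Trim10*, *Epor*, *Nfe2* and *Rhag*.

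Most of the remaining precursor genes were also near 0. *Hemgn*, *Kel* and *Cldn13* had at most 2 counts in any library, *Gfi1b* at most 3, *Ermap* at most 6, *Rhag* at most 7 and *Car1*, a carbonic anhydrase, at most 9. *Nfe2*, a globin locus control factor also used by platelets, had 8, 3 and 12 counts in *Tarsl2*+/+ and 3, 2 and 1 in *Tarsl2*-/- muscle. Summed over the 10 untested genes of the list, the counts were 26, 17 and 35 against 26, 24 and 17. The tested genes split between those that ranked like the globins and those that did not. *Trim10* had 23, 12 and 40 counts against 7, 9 and 12 (log2 fold change -1.40, edgeR adjusted p = 0.125). Mouse 595 had the highest count, and without it the log2 fold change was -0.93. *Epor*, the erythropoietin receptor, had 43, 33 and 52 against 28, 26 and 32 counts (log2 fold change -0.56, edgeR adjusted p = 0.253), with no overlap between the genotypes. Without mouse 595 the log2 fold change of *Epor* was -0.43 (edgeR adjusted p = 0.543). *Tal1* and *Zfpm1*, which endothelial cells and other blood lineages also use, had log2 fold changes of 0.29 and 0.25 (edgeR adjusted p = 0.595 and 0.534). *Tfrc*, the transferrin receptor of all growing cells, had 2569 to 3213 counts in *Tarsl2*+/+ and 2720 to 3125 in *Tarsl2*-/- muscle (log2 fold change 0.05, edgeR adjusted p = 0.865).

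Most of the transcripts that reticulocytes keep were measured at far higher counts, although most of these genes are also used by muscle. Of 13 such genes 11 were tested, 9 with a negative and 2 with a positive log2 fold change, a median of -0.20 and 0 past the threshold. Without mouse 595 it was 8 negative and 3 positive, with a median of -0.15. At an unadjusted p under 0.05, 3 were lower, and these are named here after their values were seen. They were *Tent5c*, *Ube2l6* and *Isg20*, and DESeq2 called all 3. *Tent5c*, a poly(A) polymerase listed under its older symbol Fam46c, had 153, 158 and 327 against 105, 95 and 139 counts (log2 fold change -0.90, edgeR adjusted p = 0.0806). *Ube2l6*, a ubiquitin-like conjugating enzyme, had 599, 561 and 984 against 423, 396 and 556 counts (log2 fold change -0.63, edgeR adjusted p = 0.0769). *Isg20*, an exonuclease gene, had 263, 261 and 463 against 202, 170 and 248 counts (log2 fold change -0.66, edgeR adjusted p = 0.0862). As with the globins, mouse 595 was the highest for each. Without it the log2 fold changes were -0.49 for *Tent5c* and -0.37 for *Ube2l6* and *Isg20*.

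Set against the globin counts of the same library, *Tent5c* overlapped between the genotypes. It had 1.25, 1.78 and 1.67 counts per 1000 globin counts in *Tarsl2*+/+ and 1.34, 1.43 and 1.50 in *Tarsl2*-/- muscle (exact permutation test, p = 0.5, adjusted 0.7). With 3 mice against 3 a p that misses the threshold does not show equality. The most abundant genes of the list were *Bnip3l*, which clears mitochondria, and *Bpgm*, which makes the hemoglobin ligand 2,3-bisphosphoglycerate. Their log2 fold changes were -0.03 (edgeR adjusted p = 0.872) and -0.20 (edgeR adjusted p = 0.339), the latter -0.07 without mouse 595. The untested genes of the list were as low as most precursor genes. *Trim58* had 1 count in mouse 584 and 0 elsewhere. *Tspo2* had 5, 3 and 15 counts in *Tarsl2*+/+ and 4, 5 and 12 in *Tarsl2*-/- muscle.

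**Figure D3:**
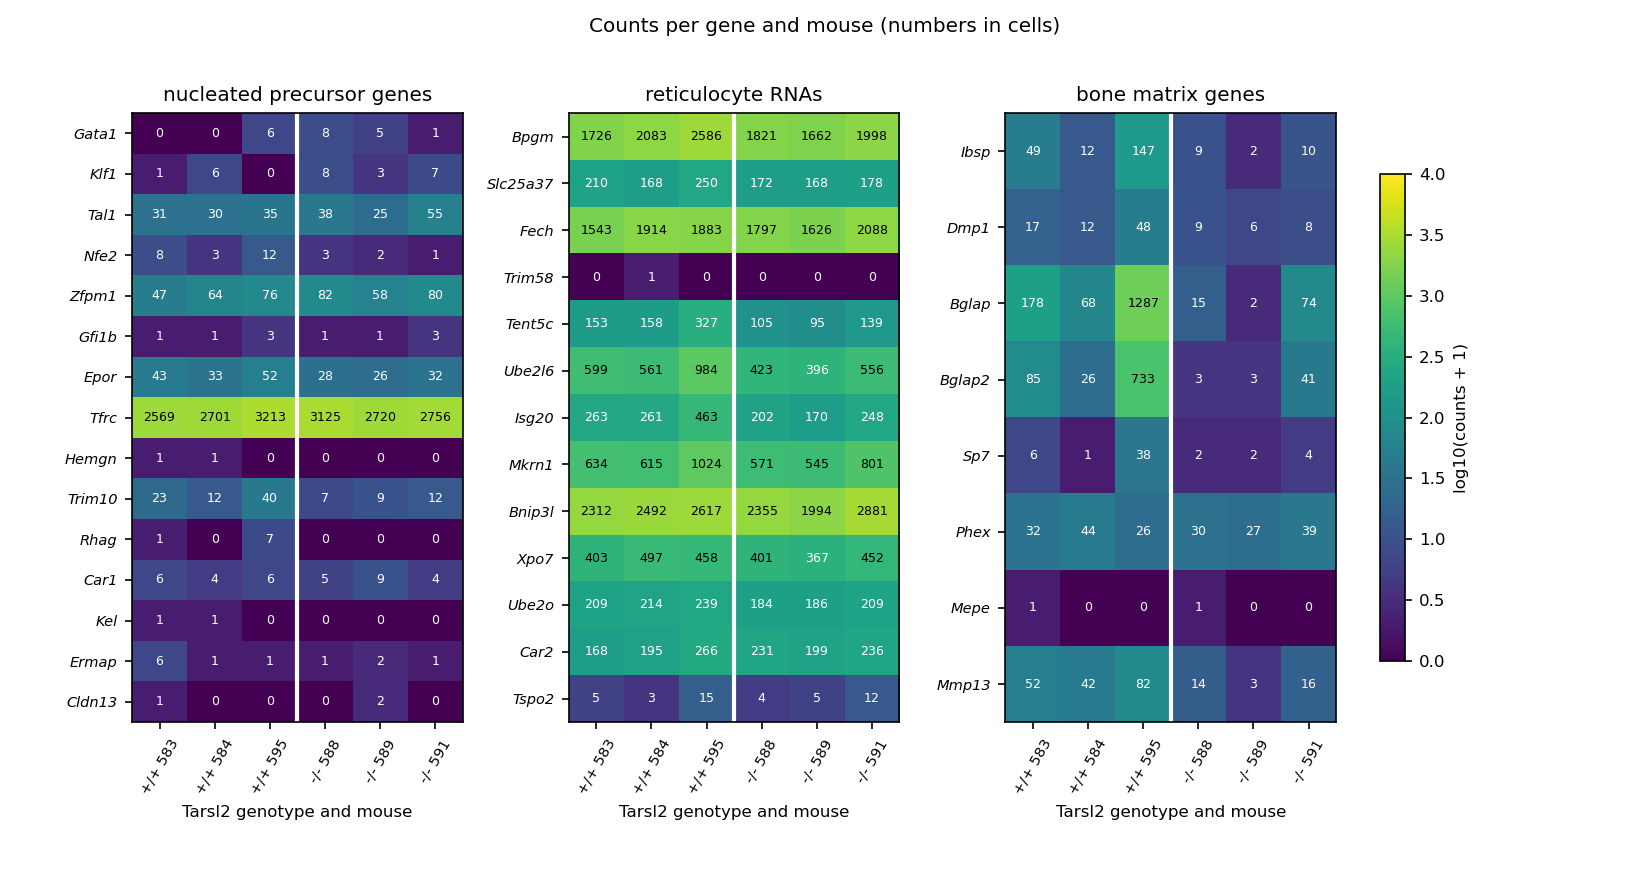
Counts in each library for 15 genes of nucleated erythroid precursors, 13 reticulocyte RNAs and 8 bone matrix genes (the last list chosen after the data were seen). Numbers are counts, color is log10(counts + 1), and the white line parts Tarsl2+/+ from Tarsl2-/- mice. Gata1 and Klf1 stay at 8 counts or fewer in every library, while Tent5c, Ube2l6 and Isg20 are highest in mouse 595.

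The other genes of heme synthesis lay on both sides of 0. Of 12 genes of the pathway and its transport, all 12 were tested, with 3 negative and 9 positive log2 fold changes, a median of 0.08 (0.05 without *Tarsl2*-/- mouse 591) and 0 past the threshold. At an unadjusted p under 0.05 there were 1 lower and 2 higher, and DESeq2 called 0. *Alas1*, which makes the same enzyme step in all other tissues, had a log2 fold change of 0.23 (edgeR adjusted p = 0.529). *Fech*, which inserts the iron, had 0.06 (edgeR adjusted p = 0.738), and *Tmem14c*, a porphyrin carrier of the mitochondrion, had -0.27 (edgeR adjusted p = 0.0992) with no overlap between the genotypes.

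The wider list of red cell membrane and skeleton genes, most of which muscle fibers or vessels also use, lay on both sides of 0 too. Of 16 genes 9 were tested, with 3 negative and 6 positive log2 fold changes, a median of 0.14 and 0 past the threshold. The median was 0.01 without mouse 595 or *Tarsl2*-/- mouse 588 and 0.23 without *Tarsl2*-/- mouse 591. At an unadjusted p under 0.05, 1 was lower (*Stom*) and 3 higher (*Sptb*, *Tmod1* and *Aqp1*), named after their values were seen. DESeq2 called *Sptb* and *Aqp1*, both higher. *Ank1*, an ankyrin with a muscle form, had a log2 fold change of 0.04 (edgeR adjusted p = 0.885). *Aqp1*, the water channel of red cells and capillaries, had 0.52 (edgeR adjusted p = 0.133).

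**Figure D4:**
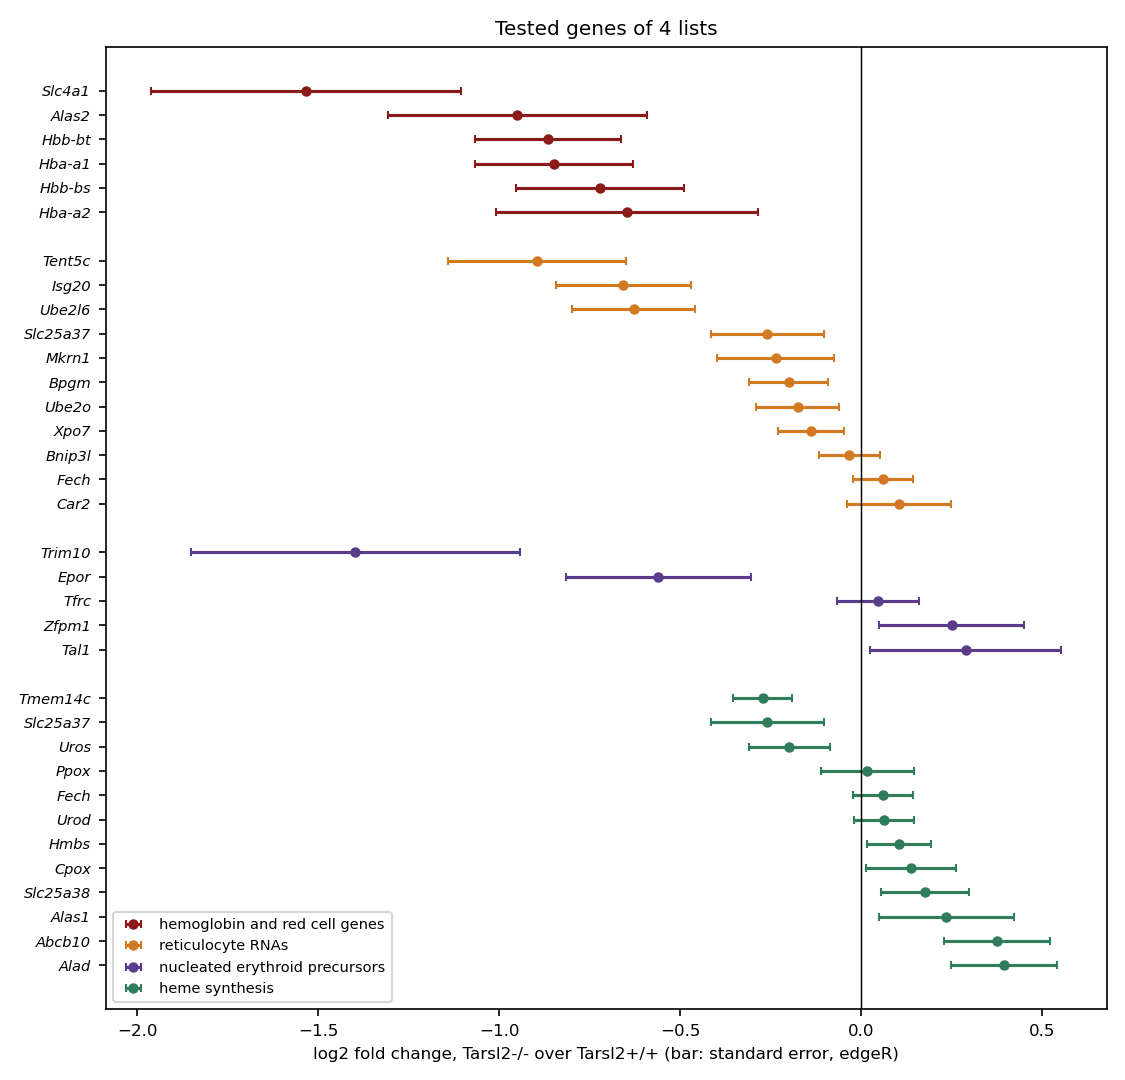
Log2 fold change (Tarsl2-/- over Tarsl2+/+, edgeR) of the tested genes of 4 lists, with bars for the standard error. Fech and Slc25a37 stand in more than 1 list. All 6 hemoglobin and red cell genes lie below 0, from -1.53 to -0.65, whereas 9 of 12 heme synthesis genes lie above 0.

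Markers of white blood cells also differed between these mice, and their part in the red cell result was not tested. Of 10 neutrophil genes 5 were tested and all 5 had a negative log2 fold change, with 0 past the threshold, 3 at an unadjusted p under 0.05 and *Camp* and *Mmp9* called by DESeq2. Their summed counts were 1348, 162 and 503 in *Tarsl2*+/+ and 141, 137 and 175 in *Tarsl2*-/- muscle. *S100a8* had 592, 7 and 129 counts against 20, 16 and 32, and *S100a9* had 411, 15 and 84 against 15, 12 and 19, so that the highest mouse here was 583 and not 595. B cell genes had summed counts of 388, 28 and 115 against 77, 15 and 40, and T and NK cell genes of 518, 53 and 116 against 42, 30 and 42. The most abundant of these were *Cd79b* and *Ms4a1* for B cells (log2 fold change of *Cd79b* -2.04, edgeR adjusted p = 0.0746, with *Ms4a1* not tested) and *Trbc2* and *Cd3g* for T cells, neither of them tested. Mouse 584, the lowest *Tarsl2*+/+ mouse for *Hba-a1*, *Hbb-bs*, *Hbb-bt*, *Alas2* and *Slc4a1*, was also the lowest of its genotype for all 3 of these lists. Myeloid precursors of the marrow had summed counts of 32, 27 and 60 against 24, 40 and 24, with *Prtn3* at 7 to 33 and *Mpo* at 3 to 10, and *Ms4a3* was at 0 in all 6 libraries.

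Bone matrix genes were added after the data were seen, because marrow lies next to bone. All 6 tested of 8 had a negative log2 fold change. Summed, they had 420, 205 and 2361 counts in *Tarsl2*+/+ and 83, 45 and 192 in *Tarsl2*-/- muscle, with the highest value again in mouse 595. *Bglap*, osteocalcin, had 178, 68 and 1287 counts against 15, 2 and 74 (log2 fold change -4.06, edgeR adjusted p = 0.0644). Its neighboring copy *Bglap2* had 85, 26 and 733 against 3, 3 and 41 (log2 fold change -4.14, edgeR adjusted p = 0.0782), and reads shared by the copies make each value uncertain. Without mouse 595 the log2 fold changes were -2.12 and -1.92 (edgeR adjusted p = 0.22 and 0.307). *Mmp13*, a collagenase of bone and cartilage, passed the threshold and was lower in *Tarsl2*-/- muscle, with 52, 42 and 82 counts against 14, 3 and 16 (log2 fold change -2.40, edgeR adjusted p = 0.0165). That call was lost without *Tarsl2*+/+ mouse 583 (edgeR adjusted p = 0.0568) or without mouse 595 (edgeR adjusted p = 0.0639). *Ibsp* and *Dmp1* had log2 fold changes of -3.27 and -1.71 (edgeR adjusted p = 0.0572 and 0.11), and -2.16 and -0.93 without mouse 595. *Phex* had -0.08 (edgeR adjusted p = 0.909), and 0.12 without *Tarsl2*+/+ mouse 584. DESeq2 called *Ibsp* and *Mmp13* (DESeq2 adjusted p = 0.0469 and 3.08e-05). The untested bone genes were low, with *Sp7* at 1 to 38 counts and *Mepe* at 1 or 0. The part of bone or marrow in the red cell result was not tested.

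Markers of the vessel wall were read as well, since red cells lie within vessels, and their part in the result was not tested. All 10 endothelial genes were tested, 9 with a negative log2 fold change, and the median was -0.14, or -0.04 without *Tarsl2*-/- mouse 589 and -0.22 without *Tarsl2*-/- mouse 591, with values near the latter without mouse 588 or 595. *Cdh5*, VE-cadherin, passed the threshold and was lower in *Tarsl2*-/- muscle, with 548, 631 and 548 counts against 384, 321 and 393 (log2 fold change -0.64, edgeR adjusted p = 0.00929). It missed the threshold without *Tarsl2*+/+ mouse 583 (edgeR adjusted p = 0.0508). The most abundant, *Egfl7* and *Tek*, had log2 fold changes of -0.06 (edgeR adjusted p = 0.838) and -0.14 (edgeR adjusted p = 0.622). Summed, the endothelial list lay between 223 and 245 CPM in *Tarsl2*+/+ and between 184 and 227 CPM in *Tarsl2*-/- muscle, and mouse 595, with the most globin, had the lowest *Tarsl2*+/+ value. Skeletal muscle genes went the other way, with 8 of 10 positive and *Ckm*, *Myh1* and *Des* past the threshold (log2 fold changes 0.49, 0.59 and 0.50). The most abundant muscle genes, *Mylpf* and *Pvalb*, had log2 fold changes of 0.08 (edgeR adjusted p = 0.762) and -0.23 (edgeR adjusted p = 0.347). The calls on *Ckm*, *Myh1* and *Des* were each lost without *Tarsl2*+/+ mouse 583 and without at least 1 other library.

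**Figure D5:**
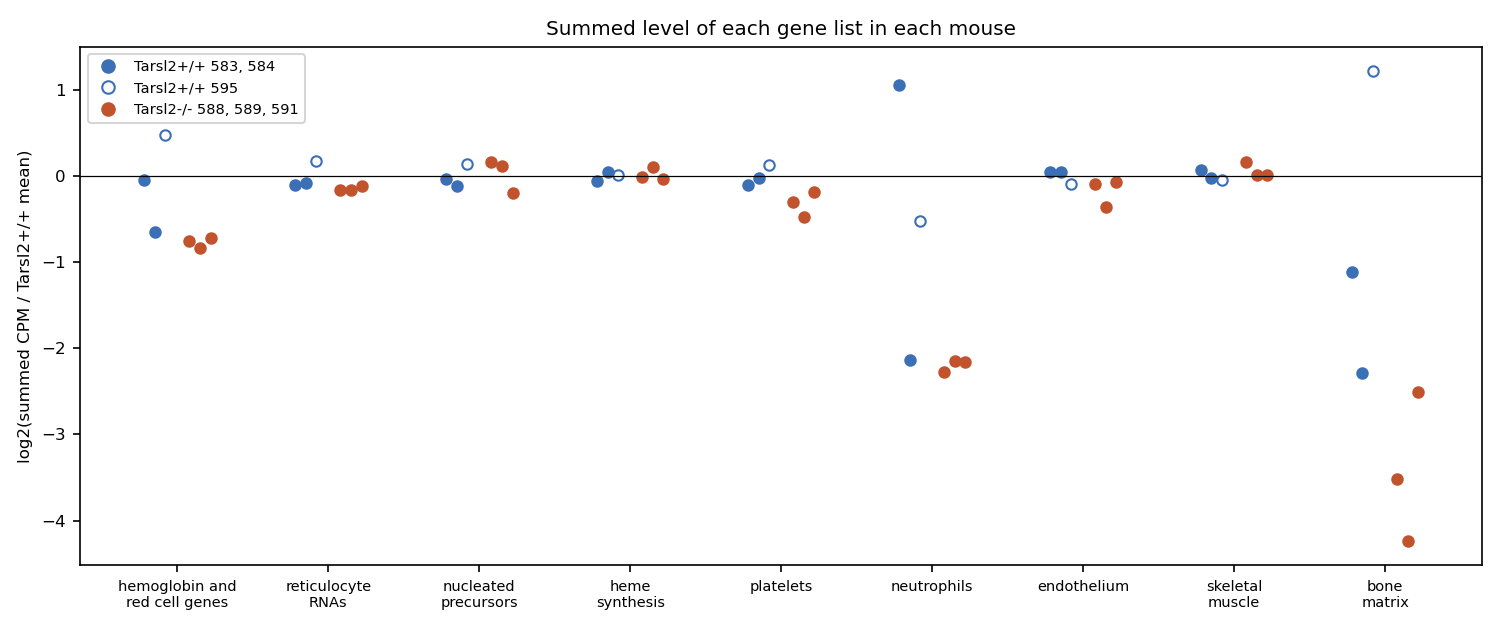
Summed CPM of each gene list in each mouse, on a log2 scale relative to the mean of the 3 Tarsl2+/+ mice. Blue points are Tarsl2+/+ mice, with mouse 595 as an open circle, and orange points are Tarsl2-/- mice. Mouse 595 is the highest for the red cell genes, reticulocyte RNAs, platelets and bone matrix but not for neutrophils. The platelet sum is mostly Pf4, with 126.3 of 137.4 CPM in mouse 595. In the precursor list, whose sum is mostly Tfrc, the genotypes overlap, at 151.8 to 181.2 CPM in Tarsl2+/+ and 143.5 to 184.3 CPM in Tarsl2-/- mice.

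The genes most like the globins were sought over all 6 libraries, as a description. Of 12505 other tested genes whose mean log2 CPM was 1 or more, 346 had a Pearson r above 0.9 with the log2 summed globin CPM, over 6 libraries that include mouse 595. The 10 highest were *2810032G03Rik* (0.995), *Rasgrp4* (0.994), *Spin1* (0.992), *Rgs14* (0.992), *Chchd5* (0.989), *Clta* (0.987), *Ppp1r35* (0.987), *Mrpl14* (0.987), *Fxyd5* (0.986) and *Fxyd2* (0.985). None of these belongs to the lists above. Among the list genes the highest ranks were those of the bone matrix gene *Ibsp* (0.974, rank 28), *Ube2l6* (0.972, rank 36), *Epor* (rank 44) and *Isg20* (rank 57). The members' own r with a sum that 4 of them form was 0.990 for *Hbb-bs*, 0.981 for *Hba-a1*, 0.937 for *Hbb-bt* and only 0.555 for *Hba-a2*, and it was 0.933 for *Slc4a1* and 0.914 for *Alas2*, which are not in the sum.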

How the data were processed

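RNA was measured in 6 muscle libraries, 1 per mouse, grouped by the genotype in the sample records. The study's methods describe TRIzol extraction, a stranded poly(A) library, paired reads of 150 bases and mapping with HISAT2 to mm10 (GRCm38), whereas the submitters' processing notes list Bowtie 0.12.2 and mm8. The table's gene positions are those of GRCm38. The deposited values are whole counts of reads on each gene, not normalized. The counting tool, its annotation, and its handling of strand and of reads that match several genes are not given in the sources used here. Of the 53084 rows, 448 are transcribed regions with no gene name.

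The filter on low counts was filterByExpr of edgeR (at least 10 counts in enough libraries and 15 in total). After TMM scaling, genotype alone was fitted with glmQLFit and tested with glmQLFTest (edgeR 4.0.16, R 4.3.3), with Benjamini-Hochberg adjustment over all 15075 tested genes and a threshold of 0.05. Standard errors are the size of the log2 fold change over the square root of F. The edgeR p-values set the genotype difference against the variation among mice, which the fit moderates over genes. Libraries of the same genotype differed beyond sampling noise in every pair (lowest chi-square per gene, 13.0). Single values were compared by exact two-sided permutation tests. Totals of 16176591 to 20123767 counts put 3 counts at 0.146 to 0.187 CPM, and Wilson intervals (95%) leave out every error but that of counting.

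The members and lists were chosen with earlier results of these data known. Some single genes of the related lists are not reported here, and the counts, sums and medians of those lists leave them out. Named genes were all members, every precursor gene, in each other list the genes past the threshold and the 2 with the highest mean CPM, and the 10 genes most like the summed globins. Any other list gene named was chosen after its values were seen. Log2 CPM used a prior count of 2. Sequences came from RefSeq promoters (6 members matched, GRCm38.p6) and GENCODE vM21 transcripts. Alternatives were DESeq2 1.42.0, limma-voom (limma 3.58.1), RLE and upper quartile scaling, scaling without the members, other count filters, each library left out and, added after seeing the data, summed globin pairs.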

Additional observations from a re-analysis of the deposited data

How the results depend on the processing

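All 80 alternative log2 fold changes of the 6 tested members were negative, and 14 of them passed the threshold. They are fits to the same mice and not independent of each other. The number of members lower in *Tarsl2*-/- muscle was 0 as reported. It was 1 with upper quartile scaling (*Hbb-bt*, edgeR adjusted p = 0.0466), 1 with at least 10 counts in every library (*Hbb-bt*, edgeR adjusted p = 0.0496), 1 with DESeq2 (*Slc4a1*) and 6 when all genes with at least 1 count were tested. Leaving out each library in turn gave 0 to 5, the 5 without *Tarsl2*+/+ mouse 584, when *Hba-a2* alone of the 6 did not pass. The number of all genes differing between the genotypes, in either direction, was 342 of 15075 as reported. It was 1437 of 25553 with at least 1 count and 671 with DESeq2. With each library left out it lay between 81 of 15411 (without *Tarsl2*+/+ mouse 583) and 625 of 15394 (without mouse 584). Calls in the lists of related genes, without the bone matrix genes added later, numbered 4 as reported, 33 with at least 1 count, 14 with DESeq2, and 0 to 21 with each library left out (0 without mouse 583, 21 without mouse 584). With at least 1 count the fit took each gene's spread from the trend alone, as its prior degrees of freedom were infinite. The cause of the other shifts was not tested. Summing each globin pair changed none of these counts. With each library left out, the summed globin difference on the log2 scale lay between -0.99 and -0.42 (-0.70 as reported), the *Slc4a1* ratio difference between -1.10 and -0.53, the alpha to beta ratio difference between -0.20 and -0.01, and the *Alas2* ratio difference between -0.25 and 0.22, changing sign. No paired analysis was made, because each replicate number is that of a single mouse and gives no pairing between the genotypes. With 3 mice per genotype and 1 of them high in red cell RNA, the size of every tested member's difference is uncertain. Over the alternatives the log2 fold change ranged from -1.97 to -1.02 for *Slc4a1* and from -1.25 to -0.20 for *Alas2*. For the globins it ranged from -1.07 to -0.51 (*Hba-a1*), -1.19 to -0.32 (*Hba-a2*), -0.99 to -0.42 (*Hbb-bs*) and -1.05 to -0.55 (*Hbb-bt*). These ranges are not confidence intervals. *Epb42* lies at the detection limit.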

Other observations

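Platelets share the blood with red cells. Of 9 platelet genes 5 were tested, 4 with a negative and 1 with a positive log2 fold change, a median of -0.44, 3 lower at an unadjusted p under 0.05 and 0 past the threshold by edgeR or DESeq2. *Pf4*, platelet factor 4, which some tissue macrophages also make, had 1831, 2128 and 2405 counts in *Tarsl2*+/+ and 1688, 1328 and 2110 in *Tarsl2*-/- muscle (log2 fold change -0.31, edgeR adjusted p = 0.13). *Itga2b*, the platelet integrin alpha-IIb, had 127, 131 and 172 against 101, 91 and 122 counts (log2 fold change -0.44, edgeR adjusted p = 0.132). Both were highest in mouse 595, and neither overlapped between the genotypes after scaling. The other tested platelet genes, *Ppbp*, *Gp1bb* and *Gp1ba*, were not highest in mouse 595. *Ppbp* had 13, 20 and 5 against 18, 7 and 15 counts, the lowest in mouse 595 (log2 fold change 0.07). *Gp1bb* had 21, 22 and 12 against 11, 14 and 9 counts, and *Gp1ba* had 10, 19 and 12 against 8, 2 and 9. *Gp9*, *Gp5* and *Treml1* had at most 5 counts in any library.

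Genes that handle released heme and iron lay on both sides of 0. Of 15 genes 14 were tested, 7 with a negative and 7 with a positive log2 fold change, a median of 0.02 and 0 past the threshold by edgeR. The median was 0.11 without *Tarsl2*+/+ mouse 595 and -0.02 without *Tarsl2*-/- mouse 591, so that its size and sign rested on single libraries. At an unadjusted p under 0.05, 1 was lower, *Cd163*, and 2 were higher, *Slc40a1* and *Ireb2*. The log2 fold changes of *Slc40a1* and *Ireb2* were 0.35 and 0.22 (edgeR adjusted p = 0.139 and 0.215). DESeq2 called *Cd163*. These genes are named here after their values were seen. *Cd163*, the macrophage receptor for hemoglobin bound to haptoglobin, had 980, 893 and 1166 counts in *Tarsl2*+/+ and 673, 518 and 939 in *Tarsl2*-/- muscle (log2 fold change -0.52, edgeR adjusted p = 0.0666). The ferritin genes *Fth1* and *Ftl1* were the most abundant of the list, with log2 fold changes of 0.14 (edgeR adjusted p = 0.55) and -0.18 (edgeR adjusted p = 0.416).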
